A study of Mus musculus with 4 samples.

Results

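Distal Nrf2 intervals, those called more than 1 kb from a gene's start and outside its body, were described in mouse esophagus. They were taken from genes with a single active region (called intervals merged between libraries). In each such gene the interval closest to the start was used, and where genes shared an interval, the gene with the shortest distance was kept. Of 1241 single-region loci under 1681 gene rows, 312 were distal, 165 upstream of the start and 147 downstream of the gene's end. The whole table lists 1727 intervals under 1940 genes. No height entered this choice directly, but an interval is listed only where it was called in a library. All 312 were called in Keap1KO (the Keap1 knockout), and only 7 in wild-type. The intervals just inside the limit were 1013 bp (Gm10648) and 1106 bp (Ftl1) from a start, with Keap1KO heights of 30 and 118. Those just outside were at 985 bp (Eef1a2) and 974 bp (Trib1), with 18 each.

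The signal is the peak height of chromatin immunoprecipitation with an antibody to Nrf2, in whole numbers without a stated unit. Esophagus came from C57BL/6 mice that were wild-type, lacked Nrf2 (Nrf2KO) or lacked Keap1 (Keap1KO), with 1 library each. The labels give no agent, age, sex, number of animals, or cell type in which a gene was deleted. Because each genotype is a single library, genotypes could not be tested against each other, and the depth is unknown. Heights of binding are no measure of expression, so they cannot check the tissue or either deletion.

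Nrf2, encoded by Nfe2l2, is a transcription factor that pairs with small Maf proteins on antioxidant response elements. Keap1 holds Nrf2 for ubiquitination, and without it Nrf2 accumulates. Targets of Nrf2 make and use glutathione, reduce quinones and carbonyls, supply NADPH and store iron. AP-1 factors of the Jun and Fos families bind a related sequence, which can lie inside such an element.

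Some intervals that the table lists far from one gene lay at the start of another, or, for Dhx32, at a further start of the same gene. In 7 of the 312 cases the listed position fell in a promoter window of RefSeq (GRCm38.p6), which runs from 250 bases before to 50 after a start. The 250 bases before the start are printed for the 5 of these windows that held either motif, because no other sequence at the distal positions was at hand. Capitals mark TGANTCA (the AP-1 site) and TGACNNNGC (the core of the antioxidant response element). Both strands were searched, and where they overlap the run of capitals covers both.
Aox1, chr1:58029719-58029968, plus strand: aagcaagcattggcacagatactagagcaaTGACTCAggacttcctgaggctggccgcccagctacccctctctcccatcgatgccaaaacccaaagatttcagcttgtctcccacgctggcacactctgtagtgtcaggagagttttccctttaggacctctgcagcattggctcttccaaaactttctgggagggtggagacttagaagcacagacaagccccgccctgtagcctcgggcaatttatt
Tomm20, chr8:126945922-126946171, minus strand: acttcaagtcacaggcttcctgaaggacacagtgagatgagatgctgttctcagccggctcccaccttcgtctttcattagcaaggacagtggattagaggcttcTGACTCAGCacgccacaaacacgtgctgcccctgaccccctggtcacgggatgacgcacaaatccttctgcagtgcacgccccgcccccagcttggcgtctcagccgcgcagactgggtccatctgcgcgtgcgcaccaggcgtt
Shc1, chr3:89421371-89421620, plus strand: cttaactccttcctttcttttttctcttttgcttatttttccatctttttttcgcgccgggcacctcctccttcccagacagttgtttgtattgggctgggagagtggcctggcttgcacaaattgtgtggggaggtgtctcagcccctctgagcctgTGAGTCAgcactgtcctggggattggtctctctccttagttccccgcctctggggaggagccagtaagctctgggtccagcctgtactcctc
Dhx32, chr7:133782786-133783035, minus strand: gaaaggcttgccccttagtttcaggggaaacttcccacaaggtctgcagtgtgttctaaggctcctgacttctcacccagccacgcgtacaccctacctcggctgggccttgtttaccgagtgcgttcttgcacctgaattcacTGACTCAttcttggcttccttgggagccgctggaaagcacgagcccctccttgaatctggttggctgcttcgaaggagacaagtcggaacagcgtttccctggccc
Gm38962, chr11:97618586-97618835, minus strand: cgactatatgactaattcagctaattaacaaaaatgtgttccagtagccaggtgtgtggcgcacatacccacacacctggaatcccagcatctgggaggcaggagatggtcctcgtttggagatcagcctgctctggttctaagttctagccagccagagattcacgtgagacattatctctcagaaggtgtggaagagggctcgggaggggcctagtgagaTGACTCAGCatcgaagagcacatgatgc

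The interval in the Aox1 window is kept under Sgol2 (RefSeq Sgo2a), whose start is 44420 bp away. It lay 209 bp before the start of Aox1, an aldehyde oxidase, and had the tallest height of the 7, with 11 (wild-type), 8 (Nrf2KO) and 86 (Keap1KO). The centre of its TGACTCA was 8 bp from the listed position. In the other 4 windows that centre was 18 bp (Gm38962), 40 bp (Dhx32), 49 bp (Tomm20) and 76 bp (Shc1) away. TGANTCA was in 5 of the 7 windows, against 6.75% of all 32851 promoter windows and 12.9% of the 124 windows at loci within 1 kb of a listed start. TGACNNNGC was in 2 of the 7, against 10.2% and 31.5%, and both times it was TGACTCAGC, which contains the AP-1 letters. The Gm33659 window, whose interval is kept under 4930543E12Rik with heights of 3, 4 and 14, held neither motif. A match is a description of letters, and 7 windows are few.

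MicroRNA genes were listed at 14 of the distal intervals. These small RNAs pair with messenger RNAs through a seed, bases 2 to 8. Of the 20 miRNA genes listed there, 18 were matched to RefSeq sequences. For each of 10 of these genes, from the clusters and Mir335, a mature sequence of a single arm is printed, with the seed in capitals, to show the seeds shared within clusters. Other arms of these genes are not printed.
miR-23a-3p: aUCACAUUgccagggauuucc
miR-27a-3p: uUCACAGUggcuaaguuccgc
miR-24-3p: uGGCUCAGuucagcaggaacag
miR-29b-3p: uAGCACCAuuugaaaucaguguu
miR-29c-3p: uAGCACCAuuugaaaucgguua
let-7b-5p: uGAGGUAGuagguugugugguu
let-7c-5p: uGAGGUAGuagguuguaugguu
miR-181c-5p: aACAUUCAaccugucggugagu
miR-181d-5p: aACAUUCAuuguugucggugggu
miR-335-5p: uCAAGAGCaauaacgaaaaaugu

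The pairs miR-29b-3p and miR-29c-3p, let-7b-5p and let-7c-5p, and miR-181c-5p and miR-181d-5p each share their seed. The cluster of Mir23a, Mir27a and Mir24-2 on chromosome 8 is listed with an interval 4294 bp upstream of Mir23a (position 84204224), with 11 (wild-type), 10 (Nrf2KO) and 37 (Keap1KO). A further interval, 8527 bp upstream of Mir181c and 16736 bp from the first, had 7, 6 and 15. In both, wild-type stood 1 above Nrf2KO and Keap1KO above both. Mir29b-2 with Mir29c had 8, 5 and 29, at 2864 bp upstream. Mir335 had 7, 2 and 24, inside the host gene Mest. The interval beyond Mirlet7b and Mirlet7c-2 had 4, 5 and 23. Mir671 had 8, 7 and 38, in a position inside Chpf2 and 674 bp from that gene's start. In these 4 loci Keap1KO was the highest, and wild-type was above Nrf2KO except at Mirlet7b. The intervals listed with Mir1942 and Mir1945 were equal in wild-type and Nrf2KO, at 7, 7 and 30 and at 2, 2 and 23. Mir5122 had 9, 5 and 24, and Mir467f had 10, 5 and 16.

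Upstream and downstream intervals had nearly the same heights, low in wild-type and Nrf2KO and higher in Keap1KO. Over the 165 upstream intervals wild-type ran from 0 to 21 with a median of 5, Nrf2KO from 0 to 14 with a median of 4, and Keap1KO from 9 to 118 with a median of 18. Over the 147 downstream intervals the ranges were 0 to 19, 0 to 12 and 9 to 136, with medians of 5, 4 and 18. Quartiles in Keap1KO were 14 and 24 in both positions. Every distal interval was called in Keap1KO and none in Nrf2KO, against 99% and 0% of all 1241 loci. In Keap1KO their heights were thus selected upwards.

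**Figure D1:**
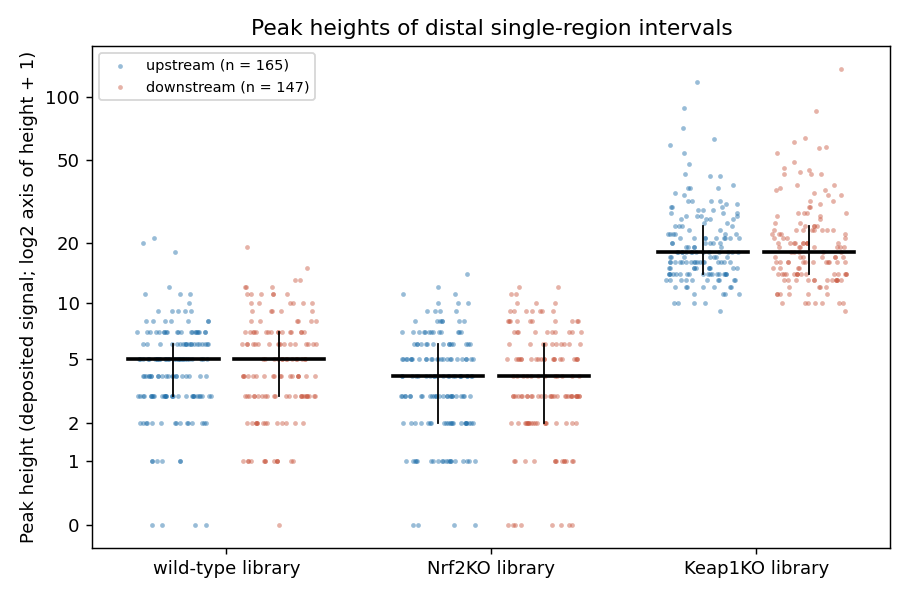
Peak height (deposited signal, log2 axis of height + 1) of the 165 upstream and 147 downstream intervals in each of the 3 libraries; each point is an interval, thick bars are medians and thin lines quartiles. The medians of 5, 4 and 18 are the same in both positions, and no Keap1KO height is below 9.

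The choice of intervals favours Keap1KO, since all 312 were called there and only 7 in wild-type. Keap1KO was higher than wild-type at all 312 distal intervals, against 98.5% of all loci. It was at least 2-fold higher, on a scale of height plus 1, at 158 of 165 upstream intervals (95.8%, exact 95% interval 91.5 to 98.3) and at 134 of 147 downstream (91.2%, 85.4 to 95.2). Over all 1241 loci the share was 86.7%. None was 2-fold lower, against 0.322% of all. The median log2 ratio was 1.87 (1.74 to 2.00) upstream and 1.86 (1.81 to 2.07) downstream, against 1.74 over all loci. These intervals cover the spread over loci, not between animals. With each library scaled to the same median height over all loci, the ratio of all loci shifted by −1.59. Then 17.6% of upstream intervals were 2-fold higher and 0% lower, and 19.7% and 2.04% of downstream intervals. Over all loci these shares were 14.3% and 5.16%. That scaling removes any overall difference by construction.

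The tallest upstream interval was that of Ftl1, the ferritin light chain that stores iron, 1106 bp before its start on chromosome 7 (position 45460992, GeneID 14325). It had 20 (wild-type), 7 (Nrf2KO) and 118 (Keap1KO), 5.67-fold above wild-type, and is also listed under Bax and Gys1. The next was kept under Mir3076 (21, 5 and 89), but its position on chromosome 14 (30564624) is inside Tkt, the transketolase of the pentose phosphate pathway. The interval of Slc22a12, a urate transporter gene, had 7, 5 and 71 at 3186 bp upstream. It was 9-fold above wild-type, the highest fold of these 3 intervals.

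The other upstream intervals among the 10 tallest had wild-type heights from 5 to 12. Epb4.1 (RefSeq Epb41), a membrane skeleton gene, had 6, 5 and 63. The interval 2787 bp upstream of Sptbn4, a spectrin gene, had 6, 3 and 59 and lay within Blvrb, a biliverdin reductase of heme breakdown, 1398 bp from that start. Mir1957 had 12, 5 and 54, at a position inside Slc2a1, the main glucose transporter gene of many cells. Cyb5 (RefSeq Cyb5a), cytochrome b5, had 5, 5 and 43, equal in wild-type and Nrf2KO. Slc25a33, a mitochondrial carrier gene, had 9, 3 and 42. Trp53cor1, a long noncoding RNA gene, had 11, 6 and 42, and its interval is also listed under its neighbour Cdkn1a, a cell cycle inhibitor.

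Downstream, the tallest interval was 868 bp past the end of Sh2d6 on chromosome 6 (position 72512784, GeneID 71130). It had 19 (wild-type), 7 (Nrf2KO) and 136 (Keap1KO), 6.85-fold above wild-type, and is listed under no other gene. Sgol2 at the Aox1 start came next. Trim56, a ubiquitin ligase gene, had 11, 2 and 64 at 8118 bp past its end. Gm216 (RefSeq Catip) had 5, 4 and 61 at a position within Slc11a1, a metal transporter gene. The interval of B230314M03Rik had 8, 3 and 58, within the lipoprotein receptor gene Lrp8 and 1003 bp from its start. So of the 5 tallest downstream intervals, those of Sh2d6 and Trim56 were in no other gene and over 1 kb from any RefSeq start.

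**Figure D2:**
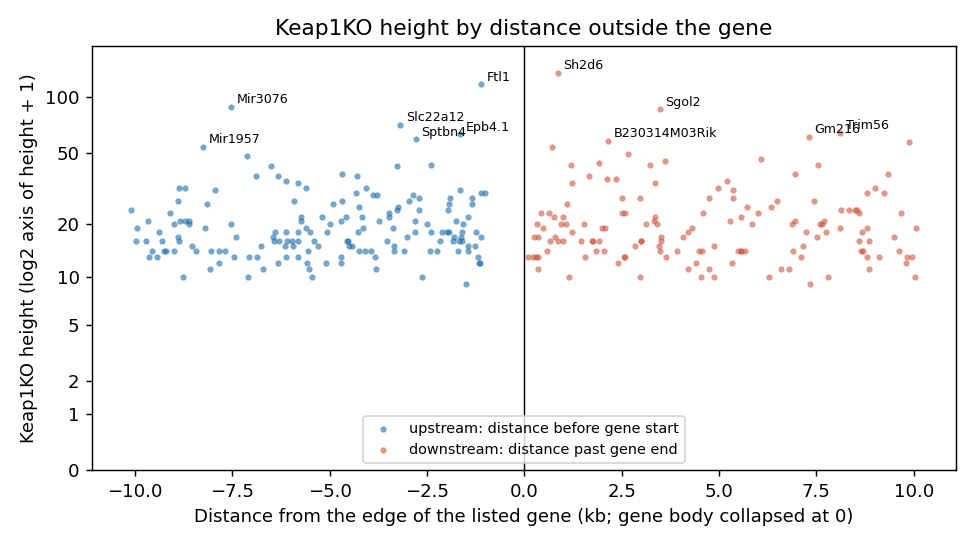
Keap1KO height (log2 axis of height + 1) against the distance in kb before the listed gene's start (165 upstream intervals, left) or past its end (147 downstream intervals, right); each point is an interval. Tall intervals are spread over the whole range, from Sh2d6 at 868 bp past the end to Mir1957 at 8259 bp before the start.

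Upstream distances ran from 1013 to 10094 bp (Gm16416, with 5, 2 and 24), with a median of 4712. There were 31 upstream intervals between 1 and 2 kb, 17.7 per kb from 2 to 5 kb and 16 per kb from 5 to 10 kb. Their median Keap1KO heights were 18, 20 and, for all 81 beyond 5 kb, 16. Median Nrf2KO heights in these upstream groups were 4 in each. Downstream intervals lay 96 to 10067 bp past the gene's end, with a median of 4474. Measured from the start they lay at 1422 bp (Gm3902, with 4, 3 and 19) to 1266209 bp (Agbl4, with 3, 5 and 27). Median Keap1KO heights were 17 up to 2 kb past the end, 17.5 from 2 to 5 kb and 19 beyond. Median Nrf2KO heights there were 5, 4.5 and 3. The outer distance of about 10 kb is the limit of the table, so these counts show only intervals within it.

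Intervals kept under genes of the Nrf2 pathway were all upstream. Of 120 genes in 8 pathway lists, 62 had a row in the table, 35 headed a single-region locus and 7 headed a distal one. They were Ftl1, Adh7, Abcc1, Akr1b8, Ptgr1, Gclm and Gpx4. All 7 were at least 2-fold higher in Keap1KO than in either other library, against 86.7% and 83.8% of all loci. Their median log2 ratios were 2.50 over wild-type and 3.04 over Nrf2KO, against 1.74 and 1.89. With 7 loci on lists drawn up with earlier results of these data known, nothing further is read from this.

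Adh7, an alcohol dehydrogenase of the upper digestive tract, had 6 (wild-type), 1 (Nrf2KO) and 48 (Keap1KO) (position 138210656 on chromosome 3, GeneID 11529). RefSeq extends Adh7 over that position, 7117 bp before the start used in the table. Gclm, the modifier subunit of glutamate-cysteine ligase in glutathione synthesis, had 5, 2 and 28 at 1912 bp upstream. Abcc1, an exporter of glutathione conjugates, had 9, 3 and 32 at 8726 bp upstream. In these genes wild-type stood above Nrf2KO, by 3.50-fold at Adh7, 2.00-fold at Gclm and 2.50-fold at Abcc1. These folds rest on low heights in single libraries, and none of the 7 pathway intervals was called in wild-type. With a pseudocount of 5 the log2 ratio at Adh7 was 0.87, less than 2-fold.

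The remaining pathway intervals showed smaller or opposite differences between wild-type and Nrf2KO. Akr1b8, an aldo-keto reductase, had 1, 3 and 29. Ptgr1, a prostaglandin reductase, had 3, 5 and 29, so at both Nrf2KO was above wild-type. Gpx4, which reduces lipid hydroperoxides, had 10, 8 and 28, the lowest Keap1KO over wild-type fold of the 7 (2.64). RefSeq places the Gpx4 interval inside Gpx4 as well.

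Pathway genes were also reached by other relations. At 8 distal intervals a pathway gene shared the interval, spanned it in RefSeq or began within 1 kb of it. Besides Aox1, Tkt and Blvrb, these include Aldh3a1, an aldehyde dehydrogenase with a listed interval kept under the pseudogene Rps13-ps5 (7 (wild-type), 7 (Nrf2KO) and 49 (Keap1KO)). Ephx1, an epoxide hydrolase, shared the interval of Tmem63a (3, 2 and 11). Gss, glutathione synthetase, shared that of Acss2 (4, 3 and 12), and Prdx2, a peroxiredoxin, that of Junb. Bach2, a repressor at antioxidant response elements, was reached from D130062J21Rik (3, 5 and 11). Of these, the Keap1KO heights at Aox1, Tkt, Blvrb and Aldh3a1 were above the upper quartile of distal intervals and the others were below the median.

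**Figure D3:**
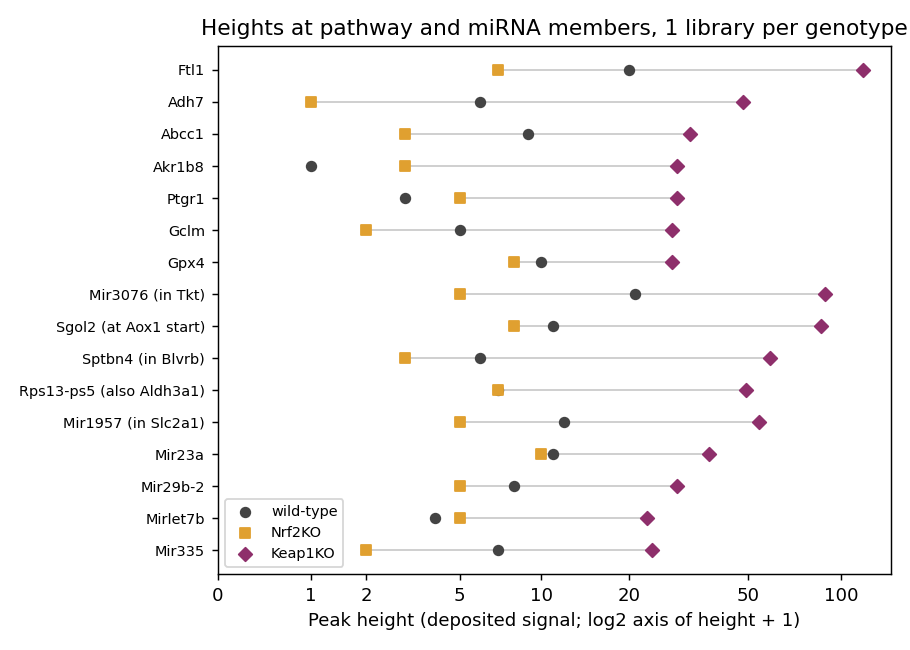
Heights (log2 axis of height + 1) in the wild-type, Nrf2KO and Keap1KO libraries at 7 intervals kept under pathway genes, 5 that overlap or are shared with pathway or glucose transporter genes, and 4 at miRNA genes; each symbol is a single library and grey lines join Nrf2KO to Keap1KO. Keap1KO is the highest at each, while wild-type lies at or below Nrf2KO at Akr1b8, Ptgr1, Rps13-ps5 and Mirlet7b.

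Against Nrf2KO the choice again favours Keap1KO, since all 312 intervals were called in Keap1KO and none in Nrf2KO. Keap1KO was also above Nrf2KO at all 312 intervals, against 98.8% of all loci. It was at least 2-fold higher at 153 of 165 upstream (92.7%, 87.6 to 96.2) and 130 of 147 downstream (88.4%, 82.1 to 93.1), against 83.8% of all loci, and 2-fold lower at none (0.161% of all). The median log2 ratio was 2.00 (1.91 to 2.25) upstream and 2.09 (1.93 to 2.27) downstream, against 1.89 over all. Scaled to equal medians, which shifts all loci by −1.87, 25.5% of upstream intervals were 2-fold higher and 6.67% lower, and 25.2% and 8.84% of downstream intervals. Of all loci 20.7% were then higher and 14.3% lower. Nrf2KO was listed at 0 at 4 upstream and 8 downstream intervals, where no fold is given.

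The 6 intervals named for the highest Nrf2KO heights had Keap1KO heights from 13 to 35, on either side of the distal median of 18. Nr3c1, the glucocorticoid receptor, had 7 (wild-type), 14 (Nrf2KO) and 19 (Keap1KO). Mdfi, an inhibitor of myogenic factors, had 5, 12 and 14. Hspb1, a small heat shock protein, had 7, 11 and 26. In these genes Nrf2KO exceeded wild-type, but choosing intervals by Nrf2KO height selects that height upwards. Downstream, the interval of Rbm34 had 10, 12 and 20 and lay 191 bp before the start of Tomm20, a mitochondrial import receptor. 1700019O17Rik (RefSeq Tex44) had 3, 12 and 13, and Dcst2 had 9, 11 and 35 at a position inside Zbtb7b. Keap1KO was 1.33-fold above Nrf2KO at Nr3c1, 1.15-fold at Mdfi, 1.62-fold at Rbm34 and 1.08-fold at 1700019O17Rik, but 2.25-fold at Hspb1 and 3.00-fold at Dcst2.

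**Figure D4:**
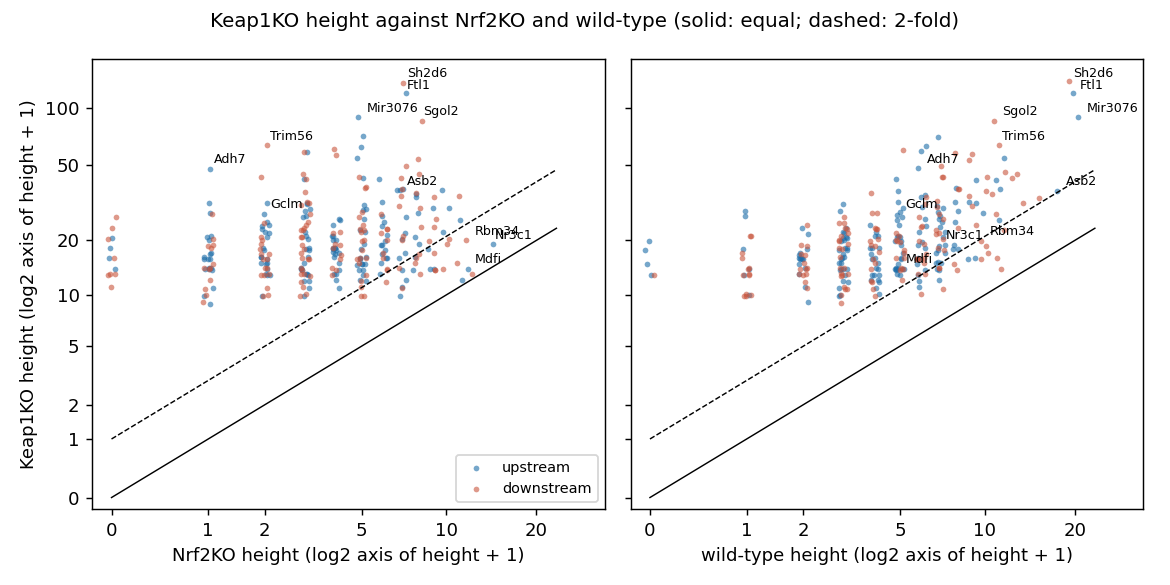
Keap1KO height against Nrf2KO height (left) and wild-type height (right) for the 312 distal intervals, all on log2 axes of height + 1, with a small horizontal and vertical scatter added to separate points; the solid line marks equal heights and the dashed line a 2-fold difference. All points lie above the solid line, and Nr3c1, Mdfi and Rbm34 lie below the dashed line against Nrf2KO.

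Wild-type and Nrf2KO differed less and in both directions. Upstream, wild-type was above Nrf2KO at 85 intervals, equal at 24 and below at 56. Downstream the counts were 83, 13 and 51, and over all loci wild-type was above Nrf2KO at 52.1%. It was at least 2-fold higher at 40 upstream (24.2%, 17.9 to 31.5) and 35 downstream intervals (23.8%, 17.2 to 31.5), against 20.1% of all loci. It was 2-fold lower at 17 upstream and 15 downstream intervals (10.3% and 10.2%), against 9.19% of all. The median log2 ratio was 0.19 (0.00 to 0.32) upstream and 0.26 (0.00 to 0.42) downstream, against 0.17. Scaled to equal medians, 16.4% were higher and 15.2% lower upstream, and 17.01% and 14.3% downstream, with all loci shifted by −0.29. Of all loci 13.4% were then higher and 15.2% lower. With a pseudocount of 5 the shares 2-fold higher were 4.24% upstream and 6.12% downstream, and those 2-fold lower 1.21% and 2.72%. How much noise alone would give at such heights was not measured.

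An interval was called in wild-type at 2 upstream and 5 downstream loci, against 3.22% of all loci (40 of 1241). Upstream they were Mir3076, inside Tkt, and Asb2, a muscle ubiquitin ligase subunit, with 18 (wild-type), 7 (Nrf2KO) and 37 (Keap1KO). Downstream they were Sh2d6, Mybpc1 (13, 3 and 45), Trim47 (12, 7 and 43), 2810030D12Rik (15, 7 and 34) and Slc10a6 (13, 3 and 32). At all 7 wild-type was above Nrf2KO, and Keap1KO exceeded wild-type by 2-fold or more. A call selects wild-type heights upwards, but calls did not follow height alone. Ftl1, at 20 in wild-type, was not called there. Mybpc1 encodes a myosin-binding protein of skeletal muscle, and its interval lay 3607 bp past the gene and 10702 bp from the start of Chpt1.

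The largest wild-type over Nrf2KO ratios were at intervals where Nrf2KO was at 0 or 1. Upstream, Ago3, an Argonaute protein gene, had 5 (wild-type), 0 (Nrf2KO) and 21 (Keap1KO), and Tpm4, a tropomyosin gene, had 5, 0 and 14. Pola2, a DNA polymerase subunit gene, had 7, 1 and 28. Downstream, Sema4f had 8, 0 and 23, Tspan3 6, 0 and 27 and Calcoco1 6, 0 and 13. None of these 6 was called in wild-type. At the other end, Keap1KO was least above wild-type at Sesn2 (7, 5 and 12; 1.62-fold), a stress-induced sestrin gene, and Arhgef12 (9, 7 and 16; 1.70-fold) upstream. Downstream these were Eif4ebp3 (11, 9 and 14; 1.25-fold) and Znrf4 (11, 6 and 16; 1.42-fold).

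Being outside the listed gene did not mean being outside genes. Of the 300 distal intervals off chromosome 18, 175 (58.3%) were in no RefSeq gene and over 1 kb from every RefSeq start, 101 (33.7%) were inside a gene, and 24 (8%) were within 1 kb of a start. The 12 on chromosome 18 were not assessed. RefSeq extended the listed gene itself over the position in 19 of the 312, among them Adh7, Gpx4 and Nr3c1. The table itself lists 57 of the 312 inside another gene. It gives 181 under 1 gene, and the others under 2 to 5.

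The 24 intervals within 1 kb of a RefSeq start had higher medians in wild-type and Nrf2KO and a lower median in Keap1KO than the 175 outside genes. Median heights in wild-type, Nrf2KO and Keap1KO were 5.5, 5.5 and 15 in the former and 4, 3 and 18 in the latter. A Keap1KO height 2-fold or more above Nrf2KO was found at 18 of the 24 (75%, 53.3 to 90.2) and at 167 of the 175 (95.4%, 91.2 to 98.0). The 101 inside a gene had medians of 5, 4 and 19, with Keap1KO 2-fold or more above Nrf2KO at 91. Loci are not replicates, and no test of this difference was run.

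The distal Nrf2KO median of 4 lay closer to those of loci inside genes than to that of loci at starts. The distal medians of 5 in wild-type and 18 in Keap1KO were not clearly closer to either. The 230 loci in a gene at 1 to 20 kb from its start had medians of 4.5 (wild-type), 4 (Nrf2KO) and 19 (Keap1KO). The 318 beyond 20 kb had 4, 3 and 17. The 381 loci within 1 kb of a listed start had 6, 7 and 17, with a median log2 Keap1KO over Nrf2KO ratio of 1.26 (1.12 to 1.36), against 2.07 (1.93 to 2.22) for the 312 distal intervals and 2.17 and 2.20 for the in-gene loci. No test of these differences was available with 1 library per genotype.

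**Figure D5:**
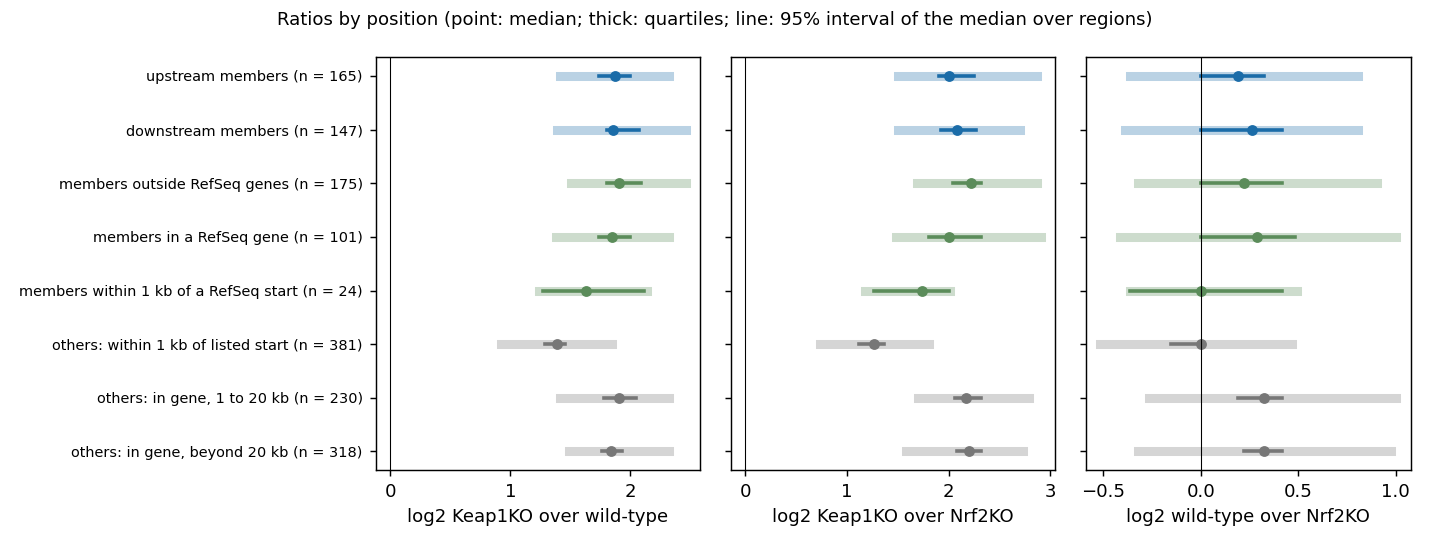
Median log2 ratio of heights plus 1 (points), its 95% order-statistic interval over loci (dark lines) and quartiles (pale bars) for upstream and downstream intervals, for distal intervals by RefSeq position, and for the other single-region loci. Keap1KO over Nrf2KO is 2.22 for distal intervals outside RefSeq genes, 1.74 for those within 1 kb of a RefSeq start and 1.26 for loci within 1 kb of a listed start.

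Outside the pathway, single genes of the other lists headed distal intervals, mostly at low heights. Of 17 basal squamous genes, 3 headed a single-region locus and 2 of these a distal one. Pax9, a transcription factor of the esophageal epithelium, had 3 (wild-type), 6 (Nrf2KO) and 16 (Keap1KO). Trp63, which encodes the basal cell factor p63, had 3, 2 and 18 past its end. Klk5, a protease of the differentiated layers, had 3, 1 and 19. Of 25 squamous differentiation genes, only 1 had a row in the table. The interval of Krt9 (3, 0 and 18) is also listed under Krt14, a basal keratin. At these 4 intervals wild-type was at 3, below the median of distal intervals. Basal squamous genes were reached by other relations at 2 distal intervals, and not every such interval is given here.

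Of 19 AP-1 and immediate early genes, 5 headed a single-region locus and 3 of these a distal one. Junb had 3, 4 and 17, Ier5 had 2, 6 and 12 and Klf4 had 3, 1 and 9. The Klf4 interval was among the lowest in Keap1KO of the distal intervals. Of 26 glycolysis genes, 2 headed a single-region locus and 1 of these a distal one. This was Hk2, a hexokinase, with 2, 1 and 14. Tpi1, triosephosphate isomerase, shared the interval of Spsb2 (7, 6 and 25). Among the lists for other cell types, Dpt, a fibroblast gene, had 3, 7 and 10, with Keap1KO 1.38-fold above Nrf2KO. Of the 15 fibroblast and endothelial genes listed, 2 headed a single-region locus. No muscle or immune list gene headed a distal interval. Only 1 of 20 muscle genes and 0 of 15 immune genes headed any single-region locus, so almost none could. Lmod1, a smooth muscle gene of the muscle list, spanned the interval of Shisa4 (7, 5 and 18). Asb2 and Mybpc1, named above as genes of muscle, were not on that list. No proteasome gene headed a distal interval either, while 13 of 32 headed a single-region locus. Psmd12 shared the interval of Pitpnc1 (7, 6 and 27), 88 bp from its own start.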

How the data were processed

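Nrf2 ChIP libraries of wild-type, Nrf2KO and Keap1KO esophagus were compared, 1 each. The pooled input library was not analysed here. Per the submitters' processing notes, the tools included BWA and MACS2 2.1.0 and the build was mm10. Settings, depth and scaling of the libraries were not given in the sources. Per the file headers, the authors deposited an average peak signal (height) for each gene and library, with flags for called intervals. All 3723 heights of the 1241 single-region loci were exact whole numbers.

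Each interval's position was derived from the listed distance and the gene's start and strand, and 95.5% of the 1727 intervals were at multiples of 16 bp. Regions were merged where rows shared any interval name, which removed 440 rows. Positions were compared with RefSeq genes and promoter windows of GRCm38.p6 by coordinate, and 292 of the 312 listed genes were matched by identifier. Log2 ratios used a pseudocount of 1, so folds at low heights are understated, and 2-fold describes size only. Medians have order-statistic and shares exact binomial 95% intervals. The ratio and motif steps were checked on simulated data in Python 3.11.15, with SciPy 1.17.1.

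Members named were the 10 upstream and 5 downstream highest in Keap1KO. In each position the 3 highest in Nrf2KO, the 3 largest wild-type over Nrf2KO ratios, the nearest and farthest, and the 2 smallest ratios of Keap1KO to wild-type were added. All members called in wild-type or on one of 16 gene lists, and those at the distance limit, were also named. Genes named by a shared, spanning or neighbouring relation, and miRNA genes other than Mir3076 and Mir1957, were chosen after their values were seen. The members and lists were chosen with earlier results of these data known. Motifs had been planned in windows around every interval, for which no genome was used here, so they were searched in promoter windows only. Alternatives were the pseudocount, a filter on mean height, the distance limit, every gene row, scaled libraries, intergenic positions and stricter calls.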

Additional observations from a re-analysis of the deposited data

How the results depend on the processing

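No paired analysis was possible because there was a single library of each genotype. Of 174 recomputed summary values 132 stayed within their interval or within 1.5 times the count. With a pseudocount of 5, which shrinks ratios of low heights by construction, the median log2 Keap1KO over wild-type ratio was 1.35 upstream and 1.36 downstream, with 75.8% and 76.9% at least 2-fold higher. Over Nrf2KO the medians were 1.42 and 1.43, with 82.4% and 81.6%. Wild-type over Nrf2KO was 2-fold higher at 4.24% and 6.12% and lower at 1.21% and 2.72%. Counting every gene row gave 269 upstream and 366 downstream rows, in which an interval shared between genes can count more than once. The shares 2-fold above wild-type were then 90.7% and 85.2%, and above Nrf2KO 86.6% and 80.1%. The median over Nrf2KO was 1.85 in both positions, and over wild-type 1.73 downstream. The cause was not tested.

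Scaling libraries to the same median sets the overall difference to about 0 by construction. Keap1KO over wild-type was then 0.28 upstream and 0.30 downstream, with 17.6% and 19.7% 2-fold higher, against 14.3% of all loci. Over Nrf2KO it was 0.21 and 0.29, with 25.5% and 25.2% higher and 6.67% and 8.84% lower. Of all loci 20.7% were higher and 14.3% lower. Wild-type over Nrf2KO changed sign upstream, to −0.092, with 16.4% higher, and 17.01% were higher downstream, against 13.4% of all loci. Of the named intervals at least 2-fold higher in Keap1KO as deposited, Keap1KO fell below wild-type under this scaling, in log2, at Nr3c1 (−0.30), Mdfi (−0.25), Tpm4 (−0.25), Sema4f (−0.22), Calcoco1 (−0.58), Asb2 (−0.70), 2810030D12Rik (−0.56), Slc10a6 (−0.44), Gpx4 (−0.26), Dpt (−0.024) and Klf4 (−0.15). Likewise it fell below Nrf2KO at Hspb1 (−0.80), Sesn2 (−0.73), Arhgef12 (−0.82), Dcst2 (−0.40), Znrf4 (−0.61), Gpx4 (−0.26) and Pax9 (−0.61). Named intervals that were less than 2-fold higher as deposited also fell below. Against wild-type these were Eif4ebp3 (−1.30), Znrf4 (−1.13), Sesn2 (−0.88), Arhgef12 (−0.86) and Rbm34 (−0.71). Against Nrf2KO they were 1700019O17Rik (−1.82), Mdfi (−1.73), Nr3c1 (−1.55), Dpt (−1.41), Eif4ebp3 (−1.33), Rbm34 (−1.27) and Ier5 (−0.98).

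Outside RefSeq genes, 97.6% of downstream intervals were 2-fold above wild-type and 95.2% above Nrf2KO. Among intervals listed under 1 gene, a setting chosen after seeing the data, 98.9% of upstream intervals were 2-fold above wild-type. A filter at the median of the mean heights left 2.63% of downstream intervals at least 2-fold lower in wild-type than in Nrf2KO. A limit of 5000 bp left 81 upstream intervals. Calls of at least the median called height left 94 upstream and 85 downstream in Keap1KO and 2 downstream in wild-type, since each such limit leaves fewer loci. The motif windows around each interval were not run, and depth, which is unknown, limits every low height.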

Other observations

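Some distal intervals lay near other listed intervals. The next interval was within 20 kb at 23 of the 312 (7.37%) and at 36 of all 1241 single-region loci (2.90%). Nearby intervals within 1 gene make that gene a row of several regions, which leaves in-gene loci out of this count by the choice of rows. The interval of Mt3, a metallothionein gene, had 7 (wild-type), 2 (Nrf2KO) and 15 (Keap1KO), and the next was 18624 bp away, listed under Mt1. The Adh7 interval was 18208 bp from that of 4930579F01Rik.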
